A study of Gallus gallus with 4 samples.

Results

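The genes of DNA replication and S phase were compared between 2 sorted groups of electroporated chick retinal cells, those with and those without an active ThrbCRM1 reporter. The set was a fixed list of 45 gene symbols, drawn up by gene name but with earlier results of these data known. Of these symbols, 42 were matched in the gene column of the deposited transcript table, out of 18300 named genes. MCM7, GINS4 and POLA2 were not matched and are not analysed here. The 42 genes were represented by 74 transcripts, 21 genes by a single transcript and 21 by several, up to 4.

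Retinas of embryonic day 5 chick embryos were electroporated with ThrbCRM1-GFP, in which an element near the receptor gene THRB drives green fluorescent protein, and with UbiqC-Tdt, which marks electroporated cells with TdTomato. After about 20 hours of explant culture the cells were sorted. The ThrbCRM1 group was positive for both reporters and the UbiqC group was positive for TdTomato alone, so both groups share electroporation, culture and sorting, and the gate rests on a plasmid reporter. PolyA RNA of 2 libraries, A and B, was sequenced in each group. Whether A and B came from separate embryos or cultures is not stated in the labels, and every p-value here is relative to library spread that could be purely technical. Total estimated counts were 30959178 and 16087500 in the ThrbCRM1 libraries A and B, against 15673010 and 31659766 in the UbiqC libraries A and B. Each matched gene had between 175 and 16925 counts in a library, and all 42 passed the filter on low counts.

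Replication starts at origins that are licensed in G1, when the origin recognition complex, CDC6 and CDT1 load the MCM helicase on DNA. At the start of S phase CDC45 and GINS join the helicase, primase and the polymerases begin synthesis, and the clamp PCNA, loaded by replication factor C, holds the polymerases on DNA. Most of these genes are known targets of E2F transcription factors, and in the embryonic retina they are active in dividing progenitors and largely silent in neurons that have left the cell cycle.

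Replication genes were lower in ThrbCRM1 than in UbiqC cells, by a modest and uneven amount. Of the 42 genes, 23 fell and 0 rose at an adjusted p below 0.05 (edgeR quasi-likelihood test, Benjamini-Hochberg adjustment over 16778 tested genes), and 19 did not pass. Over all tested genes 20.9% fell and 19.9% rose by the same test, and 40.8% passed in either direction. At an unadjusted edgeR p below 0.05, 26 replication genes were lower and 0 higher, beside 8262 of the 16778 tested genes in either direction. DESeq2 called 23 replication genes lower and 0 higher, beside 5864 of all genes in either direction. The median log2 fold change was -0.32 for the replication genes and -0.01 for all tested genes. Only RFC2 and E2F1 among the 42 fell by at least 2-fold, while 8.66% of all tested genes did so. Both ThrbCRM1 libraries lay below both UbiqC libraries for 36 of the 42 genes, against 36.7% of all tested genes, and above both for 2 genes, CCNE1 and CCNE2, against 35.2%. In bulk samples of this kind, fewer cycling cells and less replication RNA per cell cannot be told apart.

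**Figure D1:**
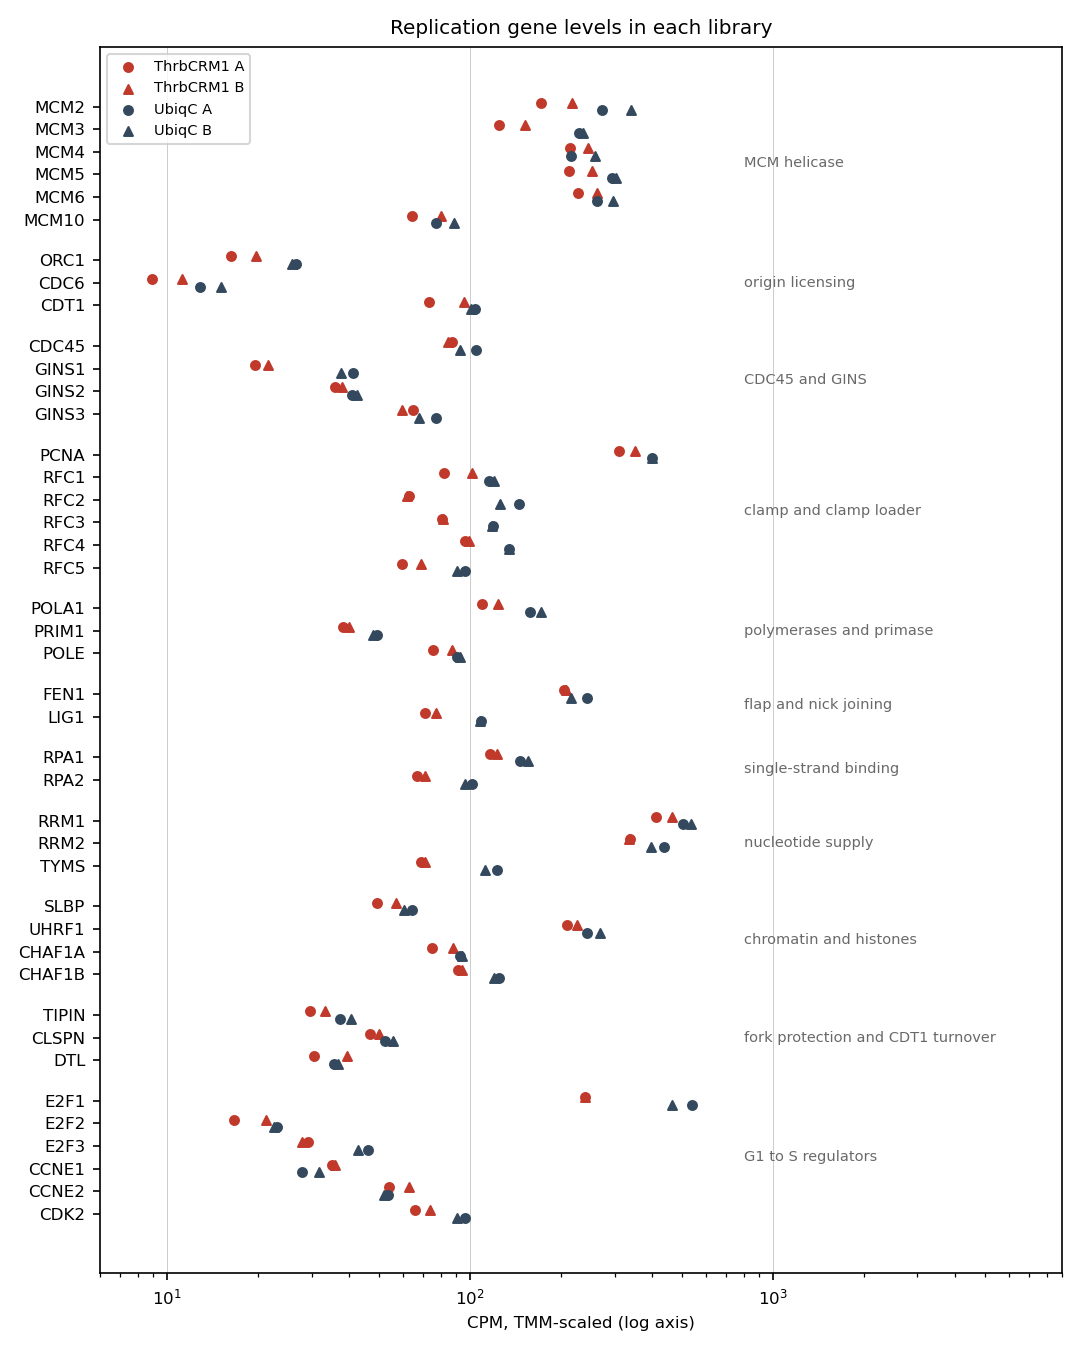
Level of each of the 42 replication genes in each library, in CPM scaled with TMM factors on a log axis; red symbols are ThrbCRM1 and dark symbols UbiqC, circles library A and triangles library B, with genes grouped by role. For 36 genes both red symbols lie left of both dark symbols, E2F1 and RFC2 show the widest gaps, and CCNE1 and CCNE2 have the order turned round.

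Summed over the 42 genes, the level was 4483 CPM in ThrbCRM1 A and 4950 CPM in ThrbCRM1 B, against 6170 CPM in UbiqC A and 6204 CPM in UbiqC B. The ThrbCRM1 mean was 76.2% of the UbiqC mean, and 78.6% on the TPM scale, which corrects for transcript length. In the edgeR fit with transcript length offsets the median log2 fold change of the 42 genes was -0.32, as in the main fit. The UbiqC libraries lay close together and the ThrbCRM1 libraries did not. ThrbCRM1 B exceeded ThrbCRM1 A for 36 of the 42 genes, against 49.1% of all tested genes, and UbiqC B exceeded UbiqC A for 19 of the 42, against 49.2%. The median log2 fold change of the replication genes was therefore -0.25 without ThrbCRM1 A and -0.41 without ThrbCRM1 B. The median of all tested genes was -0.01 in both cases. Of the 23 genes that fell, 12 lost their call under at least 1 alternative, which included the fit without ThrbCRM1 A in every case. The other 11, E2F1, E2F3, GINS1, LIG1, MCM3, RFC2, RFC3, RFC4, RFC5, RPA2 and TYMS, passed under every alternative that was run.

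Markers of cell identity also differed between the groups. The counts of markers that follow stand beside 20.9% of all tested genes that fell and 19.9% that rose. Of 12 retinal progenitor markers 10 fell and 1 rose, with summed levels of 4129 and 3695 TPM in ThrbCRM1 and 18482 and 18034 TPM in UbiqC, and none was below 1 TPM in all libraries. FABP7, a fatty acid binding protein of progenitors and glia, carried most of that sum, with 2130 and 1892 TPM in ThrbCRM1 and 15656 and 15454 TPM in UbiqC. The other 11 progenitor markers summed to 1999 and 1803 TPM in ThrbCRM1 and 2827 and 2579 TPM in UbiqC, a ThrbCRM1 mean of 70.3% of the UbiqC mean, against 21.4% with FABP7; this split was made after the values were seen. All 8 photoreceptor markers rose, with sums of 4607 and 5443 TPM in ThrbCRM1 and 119 and 128 TPM in UbiqC. They were OTX2, THRB, RXRG, RCVRN, RBP3, NR2E3, PRDM1 and NEUROD1. THRB is the gene near the element that drives the sorting reporter, so its rise is not independent of the gate. It had 309 and 419 TPM in ThrbCRM1 and 6.81 and 7.94 TPM in UbiqC. Of 6 horizontal cell markers 5 rose and 1 fell (sums of 375 and 303 TPM in ThrbCRM1, 38.7 and 51.2 TPM in UbiqC). The marker that fell was PROX1, with 3.94 and 2.11 TPM in ThrbCRM1 and 18.9 and 24.0 TPM in UbiqC. Of 9 ganglion cell markers 4 rose and 2 fell (1087 and 947 TPM in ThrbCRM1, 453 and 382 TPM in UbiqC). Those that rose were STMN2, NEFL, NEFM and L1CAM, which many neurons express, and those that fell were the transcription factor genes ISL1 and EBF3. POU4F1, POU4F2 and POU4F3 did not pass. All 5 amacrine markers, 3 of them shared with the horizontal list, rose (274 and 193 TPM in ThrbCRM1, 10.3 and 12.2 TPM in UbiqC). Glial, lens, and endothelial and mesenchymal markers summed to 13.6 to 20.0 TPM per list in ThrbCRM1 and to 65.0 to 120 TPM in UbiqC, with GFAP, MIP and COL1A1 below 1 TPM in all libraries. A single gene held most of each of these UbiqC sums. In UbiqC A and B, SLC1A3 of the glial list had 65.4 and 76.9 TPM, and CRYAB of the lens list had 51.8 and 60.9 TPM. KDR of the endothelial and mesenchymal list had 53.8 and 74.2 TPM there. PECAM1 of the same list lay the other way, with 5.8 and 8.2 TPM in ThrbCRM1 and 3.9 and 5.1 TPM in UbiqC, and had no call. Whether glial, lens or endothelial cells were present was not tested. By gene, 0 glial markers rose and 3 fell of 4 tested, 1 lens marker rose and 3 fell of 5 tested, and 0 endothelial and mesenchymal markers rose and 5 fell of 7 tested. The 7 pigment epithelium markers summed to between 17.9 and 18.4 TPM in ThrbCRM1 and between 19.6 and 21.2 TPM in UbiqC, although DCT and TYRP1 rose and MITF fell. Of 3 blood and immune markers 2 rose and 1 fell, with sums between 7.74 and 8.12 TPM in ThrbCRM1 and between 3.18 and 4.05 TPM in UbiqC, with TAL1 below 1 TPM in all libraries. The part of these differences in the fall of replication genes was not tested.

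The MCM helicase unwinds DNA ahead of the fork, and MCM2, MCM3 and MCM5 fell while MCM4, MCM6 and MCM10 had no call. Differences in fold change between these genes were not tested. MCM3 had 124 and 151 CPM in ThrbCRM1 A and B, against 228 and 236 CPM in UbiqC A and B (log2 fold change -0.75 ± 0.10 SE, edgeR adjusted p = 0.00203). MCM2 had 171 and 217 CPM in ThrbCRM1, against 274 and 339 CPM in UbiqC (-0.66 ± 0.15, edgeR adjusted p = 0.0135). For both genes the groups did not overlap, although MCM2 spread widely within each group. MCM5 had 212 and 253 CPM in ThrbCRM1, against 295 and 304 CPM in UbiqC (-0.37 ± 0.10, edgeR adjusted p = 0.0245). MCM4, with 215 and 245 CPM in ThrbCRM1 and 216 and 258 CPM in UbiqC, overlapped between the groups (-0.05 ± 0.11, edgeR adjusted p = 0.773). Its difference changed sign on the TPM scale (0.02), where the median of all genes was 0.034 to 0.043. MCM6, with 227 and 263 CPM in ThrbCRM1 against 262 and 296 CPM in UbiqC, overlapped as well and did not pass (-0.19 ± 0.10). MCM10, which helps the assembled helicase to start unwinding, had 64.4 and 79.9 CPM in ThrbCRM1 against 77.3 and 88.7 CPM in UbiqC (-0.21 ± 0.13, not past the test). Per length, the helicase subunits MCM2 to MCM6 averaged between 78.8 TPM for MCM3 and 177 TPM for MCM5 in ThrbCRM1, and between 117 TPM for MCM4 and 219 TPM for MCM5 in UbiqC. In ThrbCRM1 MCM4 at 119 TPM and MCM6 at 110 TPM followed MCM5 and lay close to each other (SD 8.78 and 9.36 TPM). MCM4 was last in UbiqC, where MCM4, MCM6 at 121 TPM and MCM3 at 127 TPM lay within their spread between libraries (SD 17.0 TPM for MCM4). MCM2 did not pass without ThrbCRM1 A (-0.49, edgeR adjusted p = 0.0758). MCM5 did not pass without ThrbCRM1 A (-0.24, edgeR adjusted p = 0.135), without UbiqC A (-0.39, 0.0556) or without UbiqC B (-0.34, 0.0620).

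Among the licensing factors, ORC1 and CDC6 were at the low end of the set, and ORC1 fell. ORC1, the origin recognition subunit whose level follows the cell cycle in mammals, had 16.3 and 19.7 CPM in ThrbCRM1, against 26.6 and 25.8 CPM in UbiqC, and fell by 0.55 on the log2 scale (SE 0.13, edgeR adjusted p = 0.0153). CDC6, an ATPase that helps load the helicase, had 8.89 and 11.2 CPM in ThrbCRM1 against 12.8 and 15.1 CPM in UbiqC, with the groups apart but the adjusted p above the threshold (-0.49 ± 0.17, edgeR adjusted p = 0.0673). CDT1, the loading factor that is destroyed in S phase, had 73.1 and 95.2 CPM in ThrbCRM1 against 104 and 101 CPM in UbiqC (-0.29 ± 0.13, edgeR adjusted p = 0.122). ThrbCRM1 A was the lowest library for all 3 genes. Without it ORC1 did not pass (-0.40, edgeR adjusted p = 0.0962), nor did it without UbiqC A (-0.53, 0.0542), and CDT1 passed without ThrbCRM1 B (-0.48, 0.0252).

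CDC45 and GINS are the partners that turn the loaded MCM ring into an active helicase, and among them GINS1 stood apart. GINS1 had 19.5 and 21.5 CPM in ThrbCRM1, against 41.1 and 37.6 CPM in UbiqC (-0.94 ± 0.10, edgeR adjusted p = 0.000872). GINS2 had 35.7 and 37.8 CPM in ThrbCRM1 and 40.6 and 42.4 CPM in UbiqC (-0.18 ± 0.09), and GINS3 had 64.9 and 59.8 CPM in ThrbCRM1 and 77.4 and 68.0 CPM in UbiqC (-0.22 ± 0.10). CDC45 had 87.4 and 84.8 CPM in ThrbCRM1 and 105 and 92.4 CPM in UbiqC (-0.19 ± 0.08). These 3 genes lay lower in both ThrbCRM1 libraries, as did 36.7% of all tested genes, but did not pass (edgeR adjusted p between 0.121 and 0.148). Per length, GINS1 averaged 41.6 TPM in ThrbCRM1 and 76.4 TPM in UbiqC, GINS3 59.4 and 66.4 TPM, and GINS2 26.6 and 29.0 TPM, so GINS1 was above GINS3 in UbiqC and below it in ThrbCRM1. Whether GINS1 fell more than GINS2 or GINS3 was not tested.

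All 6 genes of the sliding clamp and its loader fell. RFC2, a small subunit of replication factor C, had 63.0 and 62.1 CPM in ThrbCRM1, against 145 and 125 CPM in UbiqC (-1.11 ± 0.09, edgeR adjusted p = 0.000272). This was the lowest fold change of the 42 genes. RFC3 had 80.7 and 81.7 CPM in ThrbCRM1, against 119 and 118 CPM in UbiqC (-0.55 ± 0.07, edgeR adjusted p = 0.00120). RFC5 had 59.6 and 68.6 CPM in ThrbCRM1, against 96.5 and 90.8 CPM in UbiqC (-0.55 ± 0.09, edgeR adjusted p = 0.00505). The groups were well separated for all 3 of these small subunits, which with RFC4 make up the body of the loader. RFC4 had 96.0 and 99.6 CPM in ThrbCRM1, against 135 and 134 CPM in UbiqC (-0.46 ± 0.07, edgeR adjusted p = 0.00247). RFC1, the large subunit, had 82.3 and 102 CPM in ThrbCRM1, against 115 and 120 CPM in UbiqC (-0.36 ± 0.11, edgeR adjusted p = 0.0424). PCNA, the clamp itself and the most abundant of the 42 genes per length, had 311 and 350 CPM in ThrbCRM1, against 400 and 398 CPM in UbiqC (-0.27 ± 0.08, edgeR adjusted p = 0.0330). Its per-length mean was 892 TPM in ThrbCRM1 and 1033 TPM in UbiqC. The PCNA and RFC1 calls were the weak ones of the role. Without ThrbCRM1 A, PCNA was at -0.18 (edgeR adjusted p = 0.209) and RFC1 at -0.20 (0.223). Without UbiqC A they were at -0.28 (0.0843) and -0.40 (0.0808), and without UbiqC B at -0.27 (0.0708) and -0.32 (0.107). RFC1 did not pass with DESeq2 size factors (edgeR adjusted p = 0.0517), without a filter (0.0507) or with limma on the TPM scales (adjusted p between 0.0900 and 0.106), and PCNA did not pass with limma on unfiltered TPM (adjusted p = 0.0603).

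Of the polymerase and primase genes, POLA1, the catalytic subunit of the polymerase that extends primers, fell most. It had 109 and 124 CPM in ThrbCRM1, against 158 and 172 CPM in UbiqC (-0.50 ± 0.09, edgeR adjusted p = 0.00593). PRIM1, the primase subunit that makes the RNA primer, had 38.2 and 39.8 CPM in ThrbCRM1, against 49.4 and 47.9 CPM in UbiqC (-0.32 ± 0.08, edgeR adjusted p = 0.0226). POLE, the leading-strand polymerase, had 75.5 and 87.1 CPM in ThrbCRM1 against 90.6 and 92.7 CPM in UbiqC, with no call (-0.18 ± 0.09, edgeR adjusted p = 0.169). POLA1 did not pass without ThrbCRM1 A (-0.40, edgeR adjusted p = 0.0542). The PRIM1 call was lost when any of the 4 libraries was left out, with log2 fold changes of -0.28 without ThrbCRM1 A, -0.35 without ThrbCRM1 B, -0.30 without UbiqC A and -0.34 without UbiqC B (edgeR adjusted p between 0.0509 and 0.152), and with DESeq2 (adjusted p = 0.0596).

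The enzymes that finish the lagging strand differed from each other in their calls. LIG1, the ligase that seals nicks, had 71.1 and 77.1 CPM in ThrbCRM1, against 109 and 108 CPM in UbiqC (-0.55 ± 0.07, edgeR adjusted p = 0.00206). FEN1, the nuclease that trims the flaps before ligation, had 205 and 208 CPM in ThrbCRM1 and 244 and 215 CPM in UbiqC (-0.15 ± 0.08, edgeR adjusted p = 0.180). The lower UbiqC value of FEN1 lay close to both ThrbCRM1 values. RPA2, a subunit of the complex that coats single-stranded DNA, had 67.1 and 70.8 CPM in ThrbCRM1, against 101 and 96.5 CPM in UbiqC (-0.52 ± 0.07, edgeR adjusted p = 0.00244). RPA1, the large subunit of the same complex, had 117 and 123 CPM in ThrbCRM1, against 146 and 156 CPM in UbiqC (-0.34 ± 0.07, edgeR adjusted p = 0.0117). RPA1 did not pass without ThrbCRM1 A (-0.29, edgeR adjusted p = 0.109) or without ThrbCRM1 B (-0.37, 0.0573).

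Genes of nucleotide supply included some of the highest levels of the set. TYMS, which makes thymidylate, had 68.9 and 71.2 CPM in ThrbCRM1, against 123 and 112 CPM in UbiqC (-0.74 ± 0.08, edgeR adjusted p = 0.000742). RRM2, the small subunit of ribonucleotide reductase, had 337 and 334 CPM in ThrbCRM1, against 437 and 396 CPM in UbiqC (-0.31 ± 0.07, edgeR adjusted p = 0.0170). RRM1, the large subunit, had 412 and 465 CPM in ThrbCRM1 and 504 and 538 CPM in UbiqC (-0.25 ± 0.08, edgeR adjusted p = 0.0544). Both ThrbCRM1 libraries lay below both UbiqC libraries for these 3 genes, as for 36.7% of all tested genes. RRM1 passed with DESeq2 (adjusted p = 0.0314). RRM2 did not pass without ThrbCRM1 A (-0.31, edgeR adjusted p = 0.0938), without ThrbCRM1 B (-0.30, 0.0960) or without UbiqC A (-0.24, 0.0578).

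Among genes that copy chromatin and protect forks, CHAF1B and TIPIN fell. CHAF1B, a subunit of the chromatin assembly factor that places histones behind the fork, had 91.1 and 94.3 CPM in ThrbCRM1, against 125 and 120 CPM in UbiqC (-0.40 ± 0.07, edgeR adjusted p = 0.00496). Its partner CHAF1A had 75.1 and 88.0 CPM in ThrbCRM1 and 92.9 and 94.1 CPM in UbiqC (-0.20 ± 0.09, edgeR adjusted p = 0.139). UHRF1, which recruits the maintenance DNA methyltransferase, had 209 and 225 CPM in ThrbCRM1 and 244 and 270 CPM in UbiqC (-0.24 ± 0.08, edgeR adjusted p = 0.0534). These 3 genes were lower in both ThrbCRM1 libraries, as was SLBP, an order that 36.7% of all tested genes showed. SLBP, the histone mRNA binding protein, had 49.4 and 57.0 CPM in ThrbCRM1 and 64.6 and 60.5 CPM in UbiqC (-0.24 ± 0.10, edgeR adjusted p = 0.105). TIPIN, a fork protection factor, had 29.7 and 33.2 CPM in ThrbCRM1, against 37.2 and 40.3 CPM in UbiqC, just inside the threshold (-0.31 ± 0.10, edgeR adjusted p = 0.0496). CLSPN, the adaptor of the replication checkpoint, had 46.9 and 50.1 CPM in ThrbCRM1 and 52.4 and 55.6 CPM in UbiqC (-0.16 ± 0.08, edgeR adjusted p = 0.184). DTL, which targets CDT1 for destruction, had 30.4 and 39.1 CPM in ThrbCRM1 and 35.5 and 36.6 CPM in UbiqC (-0.06 ± 0.13, edgeR adjusted p = 0.742). The DTL ranges overlapped, with both UbiqC values between the ThrbCRM1 values, and its difference was 0.12 without ThrbCRM1 A. CHAF1B did not pass without ThrbCRM1 A (-0.37, edgeR adjusted p = 0.0580). UHRF1 passed without UbiqC A (-0.32, edgeR adjusted p = 0.0378) and with DESeq2 (adjusted p = 0.0480). The TIPIN call was lost when any of the 4 libraries was left out, with log2 fold changes of -0.22 without ThrbCRM1 A, -0.39 without ThrbCRM1 B, -0.37 without UbiqC A and -0.24 without UbiqC B (edgeR adjusted p between 0.0666 and 0.278), and with DESeq2 (adjusted p = 0.136), with DESeq2 size factors (edgeR adjusted p = 0.0598), without a filter (0.0574) and with limma on the TPM scales (adjusted p between 0.0663 and 0.0738).

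**Figure D2:**
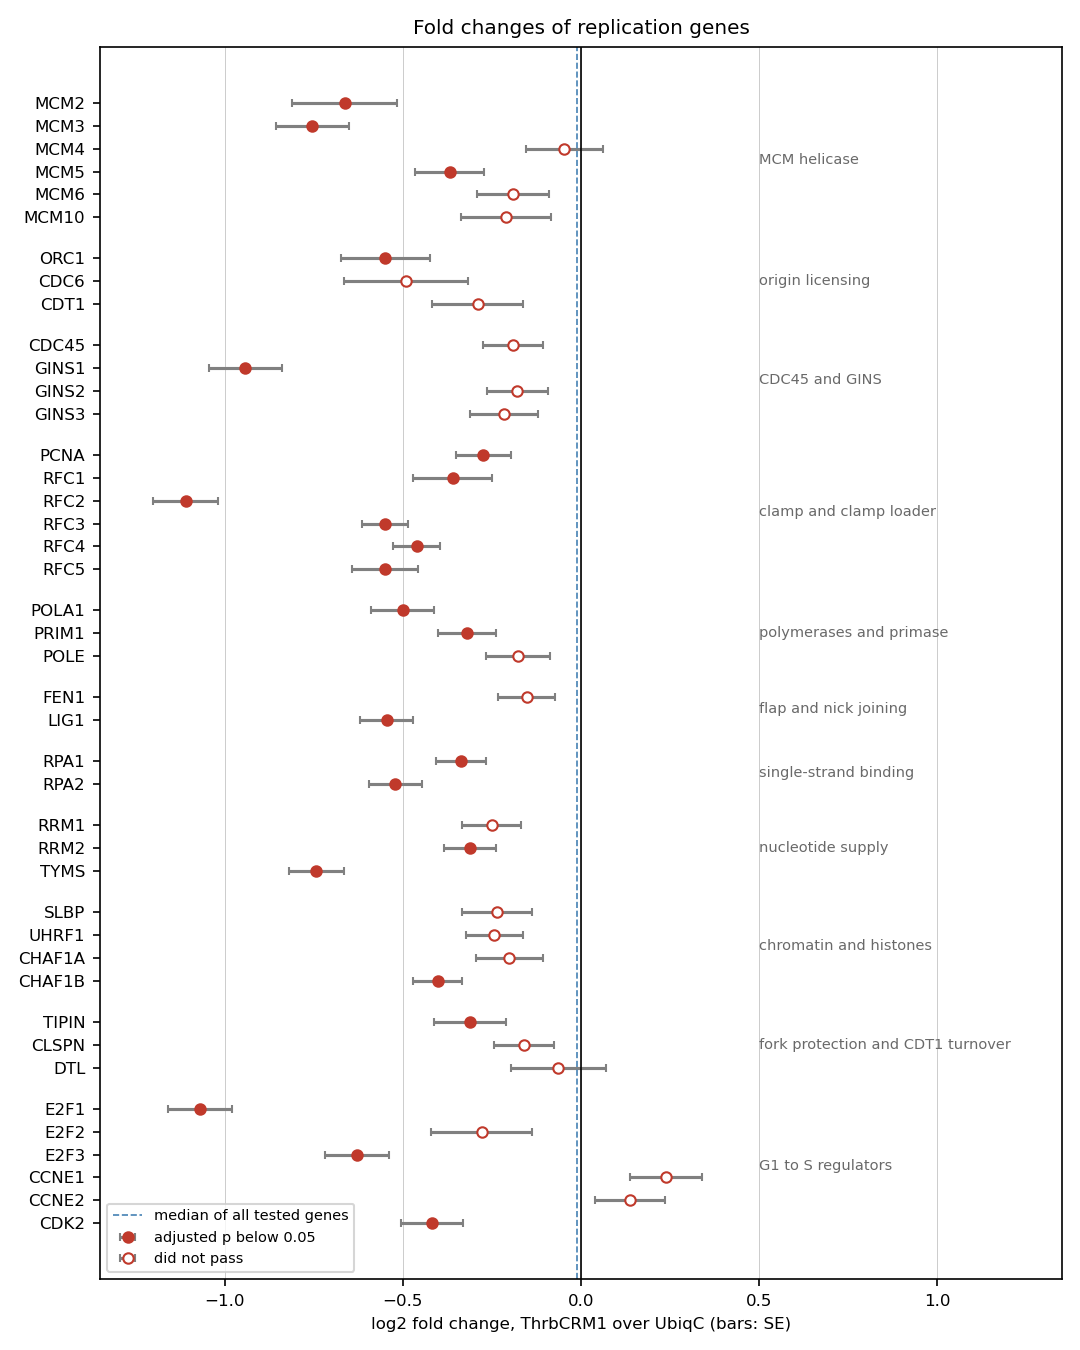
Log2 fold change of each of the 42 replication genes, ThrbCRM1 over UbiqC, with bars of 1 SE; filled points passed the edgeR test at an adjusted p of 0.05, open points did not, and the dashed line is the median of all tested genes. All but 2 points lie left of 0, from RFC2 at -1.11 to CCNE1 at 0.24, and every gene of the clamp and clamp loader is filled.

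The regulators of entry into S phase held both the greatest fall after RFC2 and the genes that lay higher in ThrbCRM1. E2F1, an activator of replication genes, had 240 and 239 CPM in ThrbCRM1, against 542 and 464 CPM in UbiqC (-1.07 ± 0.09, edgeR adjusted p = 0.000292). E2F3, another activator of the family, had 29.2 and 27.9 CPM in ThrbCRM1, against 45.9 and 42.5 CPM in UbiqC (-0.63 ± 0.09, edgeR adjusted p = 0.00253). E2F2 had 16.6 and 21.3 CPM in ThrbCRM1 and 23.0 and 22.6 CPM in UbiqC, with no call (-0.28 ± 0.14, edgeR adjusted p = 0.171). Per length E2F1 was by far the highest of the 3, with 211 TPM in ThrbCRM1 and 424 TPM in UbiqC, against 16.9 and 25.1 TPM for E2F3 and 14.7 and 17.0 TPM for E2F2. CDK2, the kinase that cyclin E activates at the start of S phase, had 65.8 and 73.9 CPM in ThrbCRM1, against 96.1 and 90.3 CPM in UbiqC (-0.42 ± 0.09, edgeR adjusted p = 0.0110). Its cyclins, CCNE1 and CCNE2, had no call, and their fold changes were not tested against that of CDK2. CCNE1 had 35.0 and 35.7 CPM in ThrbCRM1 and 27.8 and 31.8 CPM in UbiqC (0.24 ± 0.10, edgeR adjusted p = 0.109). CCNE2 had 53.9 and 62.8 CPM in ThrbCRM1 and 53.7 and 52.1 CPM in UbiqC (0.14 ± 0.10, edgeR adjusted p = 0.317). The CCNE2 value of ThrbCRM1 A was almost that of UbiqC A. CDK2 did not pass without ThrbCRM1 A (-0.33, edgeR adjusted p = 0.0952). The 6 regulators summed to 60.4% of the UbiqC mean, and E2F1 had the highest level and the lowest fold change among them. E2F1 alone averaged 240 of the 451 CPM of this sum in ThrbCRM1 and 503 of the 746 CPM in UbiqC.

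**Figure D3:**
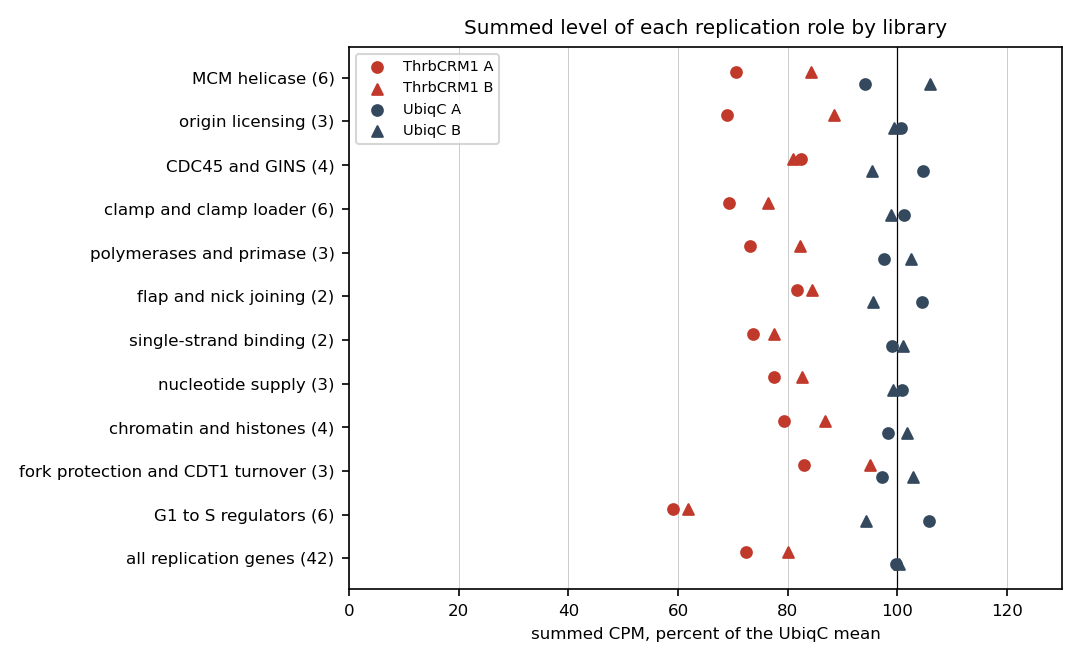
Summed CPM of the genes of each role in each library, as a percent of the UbiqC mean of that role, with the number of genes in parentheses; red symbols are ThrbCRM1 and dark symbols UbiqC, circles library A and triangles library B. The ThrbCRM1 means run from 60.4% for the G1 to S regulators to 89.0% for fork protection and CDT1 turnover, and in every role both ThrbCRM1 symbols lie left of both UbiqC symbols. E2F1 carries most of the sum of the G1 to S regulators.

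By role, the summed level in ThrbCRM1 as a percent of UbiqC was 77.3% for the MCM helicase, 78.7% for origin licensing, 81.6% for CDC45 and GINS and 72.9% for the clamp and clamp loader. It was 77.7% for polymerases and primase, 83.1% for flap and nick joining, 75.5% for single-strand binding, 80.0% for nucleotide supply and 83.1% for chromatin and histones. Abundant genes weigh most in such sums, so they describe the pool of RNA and not the typical gene. Within genes, 18 of 47 transcripts of replication genes with several transcripts and a mean of at least 1 TPM had shares of the gene that did not overlap between the groups. That is 38.3%, near the 39.7% of all such transcripts in the table.

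The authors' deposited table, made with sleuth from the same 4 libraries, lists q below 0.05 for 25 of the 42 genes, all lower in ThrbCRM1, against 21.3% of all genes listed there. Of these, 22 also fell here. In the authors' deposited table CDC6 (q = 0.0419), RRM1 (q = 0.0214) and UHRF1 (q = 0.0133) passed without passing here, and RFC1 (q = 0.0548) passed here alone. The authors' deposited cell cycle list of 111 genes holds 15 of the 42.

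Other genes of replication were drawn from a broad list of 98 symbols that also held cell cycle regulators, such as CDKN1B, RBL2 and TFDP2. Of the 98 symbols, 84 were tested. Of these, 32 fell, 6 rose and 46 did not pass (edgeR adjusted p below 0.05), or 38.1% lower and 7.14% higher beside 20.9% and 19.9% of all tested genes, with a median log2 fold change of -0.18. WDHD1, which ties the helicase to the primase, had 28.8 and 35.3 CPM in ThrbCRM1, against 71.8 and 73.7 CPM in UbiqC (-1.19 ± 0.11, edgeR adjusted p = 0.000490). Its fold change was lower than that of any of the 42 genes. E2F7, a repressor of the E2F family, fell by 0.92 on the log2 scale, SKP2, which targets the CDK inhibitor p27 for destruction, by 0.80, and RPA3, the small subunit of the single-strand binding complex, by 0.77. Of the other origin recognition subunits, ORC2 to ORC6, 3 of 5 fell, and of the accessory subunits POLE2 to POLE4, 2 of 3 fell. Of E2F4 to E2F8, 2 of 5 fell. The ORC2 call was lost without ThrbCRM1 A, and the POLE2 call when any of the 4 libraries was left out. The median log2 fold change of the 84 other replication genes was -0.11 without ThrbCRM1 A and -0.21 without ThrbCRM1 B.

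The genes that rose, besides POLD2, which had under 10 CPM on average, were TFDP2, CDKN1B, TOP1, RBL2 and DCK. TFDP2, a dimer partner of E2F proteins, had 830 and 841 CPM in ThrbCRM1, against 368 and 406 CPM in UbiqC (1.11 ± 0.07, edgeR adjusted p = 0.000115). CDKN1B, which encodes p27, had 220 and 237 CPM in ThrbCRM1, against 156 and 137 CPM in UbiqC (0.64 ± 0.09, edgeR adjusted p = 0.00203). Both rose in every alternative that was run. TOP1, a topoisomerase, rose by 0.41, RBL2, a pocket protein that binds E2F factors, by 0.31, and DCK, a nucleoside salvage kinase, by 0.26. RBL1, a pocket protein named after its values were seen, had 100 and 95.4 CPM in ThrbCRM1, against 164 and 156 CPM in UbiqC (-0.71 ± 0.07, edgeR adjusted p = 0.000572), so the 2 related genes moved in opposite directions. The calls of RBL2 (0.23 to 0.39 over the alternatives) and DCK (0.22 to 0.32) were lost without ThrbCRM1 A, without ThrbCRM1 B or without UbiqC A. That of TOP1 (0.35 to 0.48) was lost without ThrbCRM1 B.

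Genes of mitosis, the phase that follows, are given for comparison, and CCNA2 and TOP2A stood in both lists. Of 48 tested, 14 fell, 4 rose and 30 did not pass (edgeR adjusted p below 0.05). That is 29.2% lower and 8.33% higher, beside 20.9% and 19.9% of all tested genes. Their median log2 fold change was -0.13 for the mitosis genes and -0.01 for all tested genes. MKI67, a marker of cycling cells, had 676 and 784 CPM in ThrbCRM1 and 661 and 743 CPM in UbiqC (0.06 ± 0.10, edgeR adjusted p = 0.690). CCNB2, a mitotic cyclin, had 191 and 189 CPM in ThrbCRM1 and 204 and 179 CPM in UbiqC (-0.01 ± 0.08, edgeR adjusted p = 0.924). Both genes overlapped between the groups. CDK1, the mitotic kinase, had 218 and 218 CPM in ThrbCRM1, against 300 and 283 CPM in UbiqC (-0.42 ± 0.07, edgeR adjusted p = 0.00345). The lowest fold changes among mitosis genes that fell were those of ANLN, a cytokinesis scaffold (-0.61), and CENPA, the centromeric histone (-0.57). The highest were those of CENPF, a kinetochore protein, with 234 and 266 CPM in ThrbCRM1 against 135 and 167 CPM in UbiqC (0.73 ± 0.12, edgeR adjusted p = 0.00442), and NEK2, a centrosome kinase (0.35). The median log2 fold change of the 48 genes was -0.09 without ThrbCRM1 A and -0.14 without ThrbCRM1 B. It was -0.16 without UbiqC A and -0.11 without UbiqC B. The counts of mitosis genes that passed also moved with the library left out. CENPA, at 5.01 and 4.67 CPM in ThrbCRM1 and 7.32 and 7.09 CPM in UbiqC, lost its call when any of the 4 libraries was left out (-0.61 to -0.52 over the alternatives), and NEK2 (0.29 to 0.41) without ThrbCRM1 A, ThrbCRM1 B or UbiqC B.

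**Figure D4:**
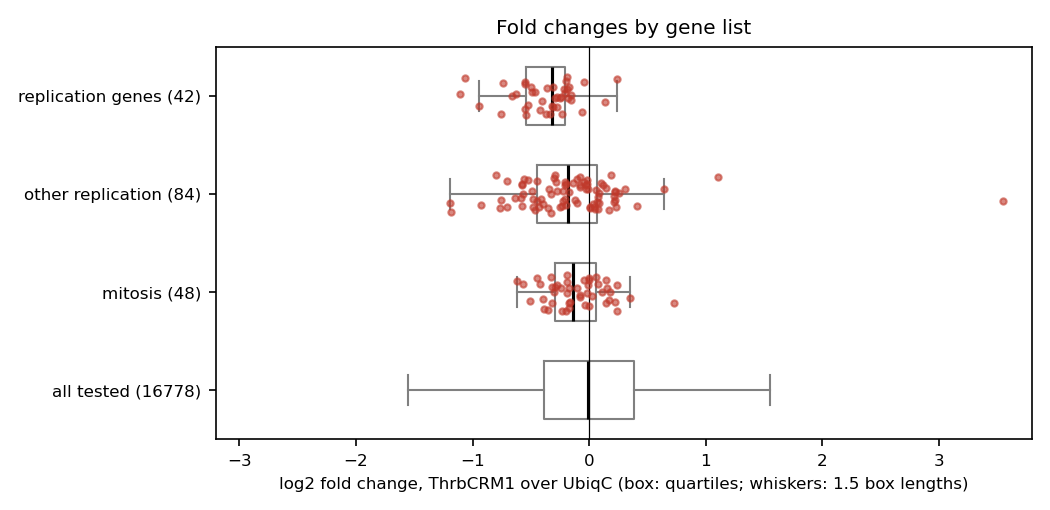
Log2 fold changes, ThrbCRM1 over UbiqC, of the 42 replication genes, 84 other replication genes and 48 mitosis genes (points, with spread along the vertical axis for sight only) and of all 16778 tested genes (box alone, with no points past the whiskers drawn). The medians are -0.32, -0.18, -0.13 and -0.01, and the replication genes span a narrower range than the box and whiskers of all genes; the point at 3.55 is POLD2.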

How the data were processed

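The 42 genes, the other lists and the alternatives were chosen with earlier results of these data known. Per the submitters' processing notes, the tools were kallisto and sleuth and the build galGal5, their versions being not given in the sources used here. For each of 57401 transcripts per library the authors deposited an estimated count, a TPM value and a length. The authors' deposited comparison holds a p-value, a q-value and a natural log effect whose sign is positive for genes lower in ThrbCRM1.

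The estimated counts of the 35667 transcripts with a gene name were added up per gene, without the reporters, and rounded. The other transcripts, with no gene name, took 0.171% to 0.198% of each library. TPM was summed by gene without further scaling. Estimated counts shared among transcripts of a gene, or with close relatives, are uncertain. Date-like symbols were replaced from a RefSeq gene table (bGalGal1.mat.broiler.GRCg7b) that listed the accession. That table held 56 of the 74 transcripts of the replication genes, all 56 under the same symbol.

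Groups were compared by the quasi-likelihood F test of edgeR 4.0.16 under R 4.3.3, after filterByExpr (minimum count 10) and TMM scaling (factors 0.988 to 1.007), with Benjamini-Hochberg adjustment at 0.05. The residual degrees of freedom were 2, and the biological coefficient of variation was 10.6%. Log ratios are ThrbCRM1 over UbiqC on the log2 scale, with SE taken from the F statistic, and levels are TMM-scaled CPM. DESeq2 1.42.0 and limma 3.58.1 served as alternatives. The edgeR step was run on simulated data in which few genes changed and all shared a common dispersion. That setting is unlike these data, so no call here rests on it. The named genes were those of the set, the 5 lowest and 5 highest fold changes with at least 10 CPM among other replication genes that passed, and MKI67, CDK1, CCNB2 and the 2 lowest and 2 highest mitosis genes that passed. Of the genes this rule names, 1 is not reported here. No sequences are shown.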

Additional observations from a re-analysis of the deposited data

How the results depend on the processing

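With ThrbCRM1 A or B, UbiqC A or B left out in turn, which leaves a lone library that is assumed to vary like the others, the counts of genes past the test lay between 4474 and 6040 for all genes, 11 and 20 for replication genes that fell, 16 and 28 for other replication genes that fell, 3 and 7 for other replication genes that rose, 4 and 13 for mitosis genes that fell and 1 and 5 for mitosis genes that rose. The labels give letters A and B no shared origin, and the correlation across genes of A minus B between the groups was 0.167, from 2 pairs only. With the letter as a replicate block 8368 of all genes passed, against 6838 without it, and the counts were 32 replication genes lower and 1 higher (CCNE1), 38 and 11 other replication genes, and 24 and 5 mitosis genes. MCM4, which did not pass, turned round to 0.0215 with limma on log2(TPM + 1), with or without a filter, and to 0.0217 on log2(TPM + 0.1), and lay between -0.17 and 0.10 with a library left out. DTL lay between -0.25 and 0.12 there. The median of all genes was 0.034 to 0.043 on the TPM scales, against -0.01 in the main fit. The cause of these changes of sign was not tested. DESeq2 size factors, the DESeq2 test, both filters on counts, length offsets and the TPM scales left between 20 and 24 replication genes lower and 0 higher. No gene of the 23 that fell changed direction under any alternative run. Depth left the least abundant gene, CDC6, with 175 to 475 counts per library.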

Other observations

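POLD2, an accessory subunit of the lagging-strand polymerase, had 425 and 20 counts in ThrbCRM1 A and B, against 4 and 29 counts in UbiqC A and B. The high value came from ThrbCRM1 A alone, so its fitted log2 fold change of 3.55 ± 1.11 (edgeR adjusted p = 0.0446) rests on that library. It did not pass when ThrbCRM1 A, UbiqC A or UbiqC B was left out, with DESeq2 and on the TPM scales, and the log2 fold change ran between 1.02 and 4.92 over the alternatives.

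Of the 21 replication genes with several transcripts, 18 had the same leading transcript in all 4 libraries. The shares that follow were chosen after their values were seen and were not tested. CHAF1A had a second, longer transcript that held 3.26% and 4.18% of its TPM in ThrbCRM1 A and B, against 0.803% and 0.712% in UbiqC A and B. GINS2 had its leading transcript at 82.5% and 85.0% in ThrbCRM1, against 92.8% and 90.4% in UbiqC. In MCM10 a transcript of 4170 bases held 48.5% and 74.0% in ThrbCRM1, against 44.3% and 33.3% in UbiqC, and the gap between the ThrbCRM1 libraries exceeded the gap between the nearest libraries of the groups. E2F1, which fell in total, had its leading transcript at 82.7% and 78.7% in ThrbCRM1 and 82.7% and 80.6% in UbiqC.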
